A study of Schizosaccharomyces pombe with 4 samples.

Results

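The right end of chromosome III of fission yeast, Schizosaccharomyces pombe, was examined in a tiling-array experiment on Rad52, a protein of homologous recombination, by chromatin immunoprecipitation (ChIP). It was taken as all chromosome III probes that start at 2150187 or higher, and a strain difference in the same arrays had singled it out. The rule found 1012 probes, of which 1010 remained without those that the scanner software called outliers, of 42548 nuclear probes in all. They run to 2439511, over 289325 bp at a median spacing of 251 bp. In the reference genome (ASM294v3) the 18S gene of the ribosomal DNA starts at 2440994, which is 1483 bp past the last probe.

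Each strain had 2 arrays, and each array carried a ChIP sample in Cy3 and an input sample in Cy5. Both strains carried cdc25-22, an allele that holds cells before mitosis at high temperature, and both lacked rif1. The first strain was rif1Δ and the second was rif1Δ rad3Δ. Cells were held for 4 h at 36.5 °C, released at 25 °C and given 6 mM hydroxyurea, which lowers nucleotide pools and slows replication forks. No strain with Rif1 and no ChIP without Rad52 was analysed here, so a level of enrichment cannot be told apart from enrichment that does not need the protein. Nothing in the labels says that the replicates were separate cultures, so their spread may be technical.

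Rad52 loads on single-stranded DNA and is a central factor of homologous recombination, both at broken chromosomes and at damaged forks. Rif1 binds telomeres in fission yeast and also holds back late replication origins across the chromosomes. Rad3 is the fission yeast relative of the ATR kinase, which signals stalled replication and keeps late origins from firing under hydroxyurea. Chromosome III differs from the others in that arrays of ribosomal DNA repeats, known for a programmed fork barrier and for recombination between repeats, stand between its single-copy arms and its telomeres.

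The arrays differed in quality, and 1 label did not match the data. Median spot signals ranged from 390.5 to 1116 for ChIP and from 574 to 2148 for input, and the lower bound of both was rif1Δ rad3Δ replicate 2. That array was read with the ChIP protocol of the scanner software while the other 3 were read with its CGH protocol, and its spread between neighbouring probes was 0.452 against 0.311 to 0.321. Probes in rif1 lay between 0.867% and 3.48% of the array median in all input channels. The labels give the input of the rif1Δ rad3Δ arrays as cdc25-22, yet rad3 probes lay there at 1.82% and 0.972% of the median, against 79.4% and 78.5% in the rif1Δ inputs. Arrays of replicate 1 shared a slide, and those of replicate 2 were on slides of their own.

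Sequences of 300 bases are shown around a single probe of each of 4 bins of 1 kb, so that the DNA under the signal can be read. The first and second hold the largest strain differences among the named bins that lie between genes, the third holds the highest rif1Δ rad3Δ level of the region, and the fourth holds the most negative strain difference among bins in which both arrays of a strain lie on the same side of both arrays of the other. In the first 3 the probe is the highest of its bin in rif1Δ rad3Δ and in the fourth the lowest, chosen after the values were seen. Bases are those of RefSeq ASM294v3, plus strand, and capitals mark runs of 6 or more A or 6 or more T.
nnk1 to sac32, chrIII:2363432-2363731: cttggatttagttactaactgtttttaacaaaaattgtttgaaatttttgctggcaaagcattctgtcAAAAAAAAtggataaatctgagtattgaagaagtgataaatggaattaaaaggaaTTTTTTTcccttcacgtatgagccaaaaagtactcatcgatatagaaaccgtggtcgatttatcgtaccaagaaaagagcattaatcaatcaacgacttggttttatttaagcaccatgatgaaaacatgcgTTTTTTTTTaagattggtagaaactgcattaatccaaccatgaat
dbp9 to trm732, chrIII:2335745-2336044: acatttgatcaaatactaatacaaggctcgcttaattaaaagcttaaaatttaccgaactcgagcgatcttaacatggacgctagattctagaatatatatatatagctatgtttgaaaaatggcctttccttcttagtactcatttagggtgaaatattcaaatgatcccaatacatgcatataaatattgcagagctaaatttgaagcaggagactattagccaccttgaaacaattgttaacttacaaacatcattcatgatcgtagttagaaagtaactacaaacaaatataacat
SPCC569.06, chrIII:2420378-2420677: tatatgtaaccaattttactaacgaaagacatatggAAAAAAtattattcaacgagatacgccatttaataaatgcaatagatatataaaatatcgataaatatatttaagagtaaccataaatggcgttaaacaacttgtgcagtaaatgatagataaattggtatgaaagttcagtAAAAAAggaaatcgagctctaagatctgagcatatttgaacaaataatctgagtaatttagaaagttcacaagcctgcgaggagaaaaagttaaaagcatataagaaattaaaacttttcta
snf22, chrIII:2176052-2176351: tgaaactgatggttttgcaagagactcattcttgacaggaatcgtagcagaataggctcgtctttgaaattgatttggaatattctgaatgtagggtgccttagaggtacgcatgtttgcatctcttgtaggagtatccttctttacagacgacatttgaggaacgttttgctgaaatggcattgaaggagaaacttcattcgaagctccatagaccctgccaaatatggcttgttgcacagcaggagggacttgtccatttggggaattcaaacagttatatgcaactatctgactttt

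The A+T content was 69% in each of the first 2 windows, 73% in the third and 58.7% in the fourth. Over 41898 windows of 300 bases that tile the 3 chromosomes the median was 64%. Of these windows 19% held as much A+T as the first 2, and 4.49% as much as the third. Runs of AAAAAA or TTTTTT, which are each other's reverse complement, were searched as letters and counted 3, 0, 2 and 0 in the order shown, and 55.2% of all windows hold at least 1. A run is only a description of the letters.

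At these probes the log2 ratio of ChIP over input, with 0 the array median, was as follows. Between nnk1 and sac32 it was 0.41 and 0.14 on the rif1Δ arrays and 1.96 and 1.54 on the rif1Δ rad3Δ arrays. Between dbp9 and trm732 it was -0.22 and 0.042 against 1.70 and 1.70. In SPCC569.06 it was 0.56 and 0.21 against 1.71 and 2.01, so in all 3 places both rif1Δ rad3Δ arrays were above both rif1Δ arrays. In snf22, which encodes an ATPase of the SWI/SNF chromatin remodeller, it was -0.28 and -0.11 against -0.66 and -0.61, and the order was turned round.

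Over the whole region, the rif1Δ arrays stood close to the array median and the rif1Δ rad3Δ arrays above it. The mean log2 ChIP over input was 0.055 and 0.013 in rif1Δ, or 0.034 ± 0.030 (SD, n = 2). It was 0.86 and 0.43 in rif1Δ rad3Δ, or 0.65 ± 0.31 (SD, n = 2), which is a 1.57-fold mean level against 1.02-fold. The strains did not overlap, and the lower rif1Δ rad3Δ array was further from rif1Δ than the rif1Δ arrays from each other. The rif1Δ rad3Δ arrays, however, lay further from each other than the lower of them lay from either rif1Δ array. The difference was 0.61 ± 0.22 (SE). This contrast chose the region, so it is given as a description with no test. On the shared slide the difference was 0.81, and between the arrays of replicate 2 it was 0.42. Without rif1Δ rad3Δ replicate 2 it was 0.83, and without rif1Δ rad3Δ replicate 1 it was 0.40.

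The elevation was broad and was not made by a few bins. Probes were combined into 1 kb bins by their mean, each of 2 or more probes, and 273 of 12047 bins lie in the region. The median bin was at 0.94 and 0.43 on the rif1Δ rad3Δ arrays, and at 0.046 and -0.0090 on the rif1Δ arrays. In rif1Δ rad3Δ the share of bins above the array median was 95.6% and 84.2%, against 62.6% and 48% in rif1Δ. In the outer 150 kb all 135 bins of rif1Δ rad3Δ replicate 1 were above the median, with the lowest at 0.64, and 127 of 135 in replicate 2. In the other 2001 bins of chromosome III the shares were 52.3% and 51.8%.

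In rif1Δ rad3Δ the signal climbed from the start of the region toward the telomere. In consecutive 50 kb windows replicate 1 stood at 0.24, 0.69, 0.89, 1.16, 1.14 and, over the last 39 kb, 1.16. Replicate 2 stood at 0.14, 0.29, 0.35, 0.58, 0.58 and 0.78 in the same windows. Both arrays were lowest in the first window, replicate 1 levelled off from the fourth, and replicate 2 was highest in the last. In rif1Δ the windows lay between -0.070 and 0.11 in replicate 1 and between -0.091 and 0.14 in replicate 2. The rif1Δ rad3Δ arrays were above both rif1Δ arrays in all 6 windows. The strain difference was 0.27 ± 0.054 (SE) in the first window and 0.86 ± 0.19 in the last.

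The last 20 kb before the ribosomal DNA held a higher mean log2 ChIP over input than any of the 50 kb windows in rif1Δ rad3Δ. The 48 probes there averaged 1.27 and 0.96 in rif1Δ rad3Δ, against 0.15 and 0.22 in rif1Δ. Their mean level was 2.17-fold against 1.13-fold, and the difference 0.93 ± 0.16 (SE). The 2 rif1Δ values here were also above those of the first 20 kb, which were -0.025 and -0.089.

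**Figure D1:**
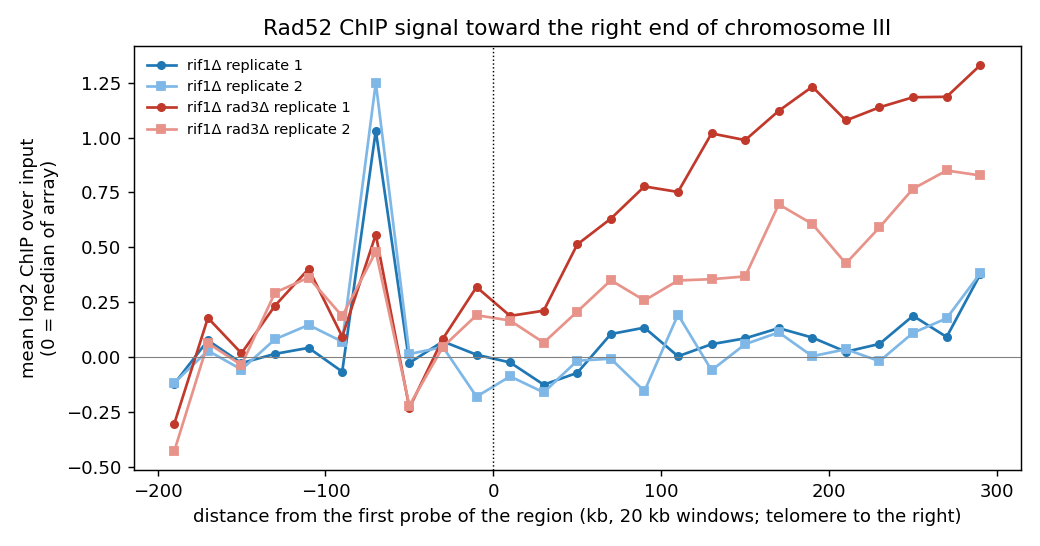
Mean log2 ChIP over input in windows of 20 kb (y axis, 0 is the array median) against distance from the first probe of the region (x axis, kb, with the telomere to the right and a dotted line at the start), for each of the 4 arrays. Right of the line both rif1Δ rad3Δ arrays lie above both rif1Δ arrays and climb, and the last point rests on 7 probes. The peak left of the line is that of SPCPB1C11.03.

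The start of the region was not a sharp step. The 20 kb just inside stood at 0.19 and 0.17 in rif1Δ rad3Δ and -0.025 and -0.089 in rif1Δ, a difference of 0.23 ± 0.033 (SE). The 20 kb just outside stood at 0.32 and 0.19 against 0.010 and -0.18, a difference of 0.34 ± 0.12. Between 100 and 50 kb outside the order was reversed, with 0.17 and 0.19 in rif1Δ rad3Δ and 0.41 and 0.57 in rif1Δ. A tall peak over SPCPB1C11.03, a cysteine transporter gene, lies there, with its highest rif1Δ bin at 2.77 and 3.66 against 1.28 and 0.79 in rif1Δ rad3Δ. The 50 kb just outside the region differed by 0.16 ± 0.061.

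The difference lay mainly in the ChIP channel. Each channel was set against its own array median over all nuclear probes. The ChIP signal of the region was -0.058 and -0.28 in rif1Δ and 0.83 and 0.17 in rif1Δ rad3Δ on the log2 scale. The input signal was -0.10 and -0.25 in rif1Δ and -0.021 and -0.24 in rif1Δ rad3Δ. Between arrays of the same replicate number, the ChIP channel thus differed by 0.89 and 0.45 and the input by 0.080 and 0.012.

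In the last window the input of the replicate 2 arrays was low in both strains, at -0.68 in rif1Δ and -0.79 in rif1Δ rad3Δ, against -0.26 and -0.13 in replicate 1. There the ChIP channel of rif1Δ rad3Δ replicate 2 was at -0.024, so that its high ratio stood beside a low input. The same ChIP channel was at -0.59 in rif1Δ replicate 2. The part of input level in the outward climb of replicate 2 was not tested. In replicate 1 the ChIP difference grew from 0.33 in the first window to 1.21 in the last while the input difference stayed between 0.022 and 0.13.

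**Figure D2:**
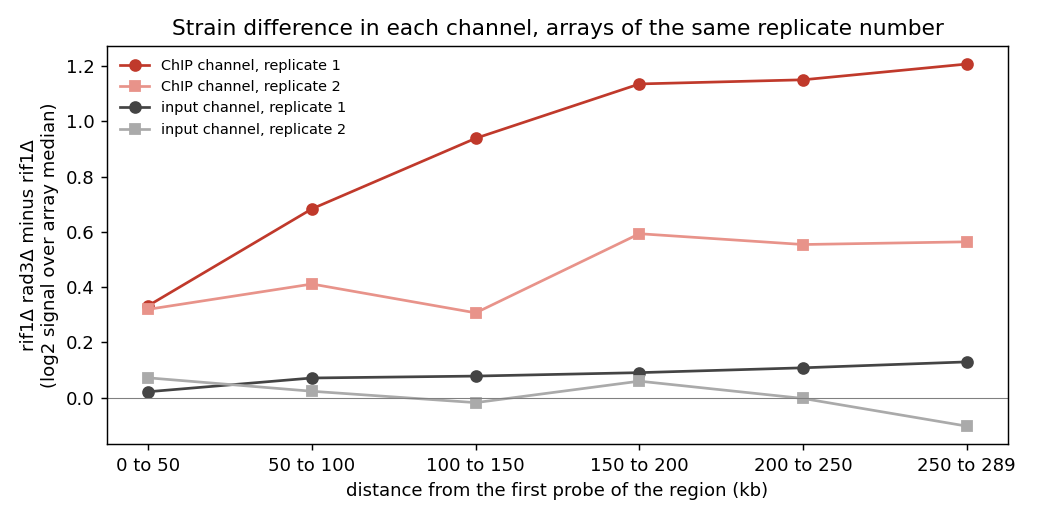
Difference between rif1Δ rad3Δ and rif1Δ arrays of the same replicate number (y axis, log2 signal over the array median) in each 50 kb window (x axis, kb from the first probe), for the ChIP and the input channel. The lowest ChIP difference of the windows is 0.31, and the input differences lie between -0.10 and 0.13.

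Other chromosome ends differed less between strains in the mean of the arrays, but not in replicate 2 alone. In the outer 100 kb covered by probes, the right end of chromosome III stood at 1.15 and 0.63 in rif1Δ rad3Δ and 0.096 and 0.073 in rif1Δ, a difference of 0.81 ± 0.26 (SE). The left end of chromosome III, which also borders ribosomal DNA, stood at 0.37 and 0.33 against 0.074 and 0.13, a difference of 0.24 ± 0.035. The right end of chromosome II differed by -0.069 ± 0.073 and its left end by -0.17 ± 0.18. The left end of chromosome I differed by -0.32 ± 0.21 and its right end by -0.44 ± 0.22. Between the arrays of replicate 2 these 2 ends differed by -0.56 and -0.73, against 0.56 at the right end of chromosome III. Between those of replicate 1 they differed by -0.076 and -0.16, against 1.05. On chromosomes I and II the lower of the rif1Δ rad3Δ arrays was replicate 2 at each end. Over ends of the same length as the region, the left end of chromosome III differed by 0.14 ± 0.017 and the 4 ends of the other chromosomes by -0.19 to 0.061. Since the region was picked for its difference, its place above the other ends is no test.

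**Figure D3:**
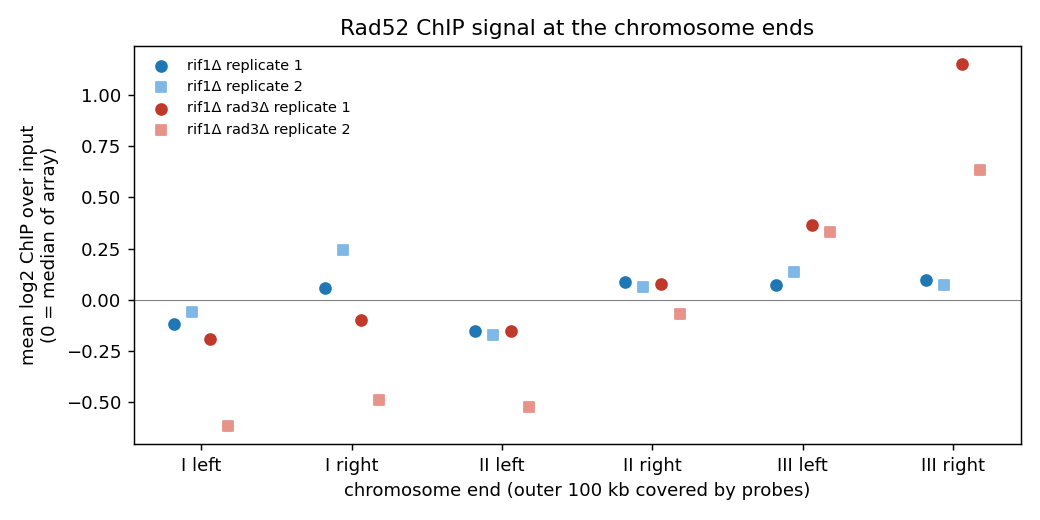
Mean log2 ChIP over input (y axis, 0 is the array median) in the outer 100 kb covered by probes at each chromosome end (x axis), a point per array. Both rif1Δ rad3Δ arrays are above both rif1Δ arrays at the 2 ends of chromosome III, by 0.81 on average at the right end and by 0.24 at the left end.

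Bins were fitted over the whole array with limma, both strains sharing an estimate of spread, and p-values were adjusted by Benjamini-Hochberg over all 12047 bins with a threshold of 0.05. Between strains, 121 of 273 region bins were higher in rif1Δ rad3Δ, or 44.3%, against 10.3% of all bins, and 0 were lower, against 8.16% of all bins. The rule used this contrast, so nothing is read from these counts. By window, outward, the calls were 8 of 49 bins, 14 of 50, 18 of 50, 26 of 45, 29 of 50 and 26 of 29. In 210 region bins, 76.9%, both rif1Δ rad3Δ arrays were above both rif1Δ arrays, as in 30.8% of all bins, and in 4 both were below, as in 33.8% of all bins. Dividing each array by its own spread, which was 0.25 and 0.28 in rif1Δ and 0.50 and 0.52 in rif1Δ rad3Δ (median absolute deviation of bins), left 0 bins called, while the mean difference was 0.44.

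Against the array median, rif1Δ rad3Δ had 196 region bins above, or 71.8%, where 24.5% of all bins were called. It had 2 below, where 24.4% of all bins were called. In rif1Δ, 6 region bins were above the median, or 2.2%, where 4.32% of all bins were called. Only the wtf25 bin described below lay under it, where 0.971% of all bins were called. The rif1Δ shares are near or under the background. The same arrays chose the region, so these counts too are given as description.

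The 6 bins above the median in rif1Δ lie at 5 genes and a 5S rRNA gene, and all 6 have the same sign in rif1Δ rad3Δ. The highest were 2 bins of bgs4, which encodes the glucan synthase subunit of the cell wall and septum. In bin 2255000 to 2255999 the values were 0.56 and 0.79 in rif1Δ (adjusted p = 0.0142, limma) and 0.91 and 0.87 in rif1Δ rad3Δ. In bin 2249000 to 2249999 they were 0.72 and 0.54 against 0.84 and 0.43, and the strains overlapped. The bin at gst2, a glutathione S-transferase gene, stood at 0.59 and 0.53 against 0.94 and 0.58. The differences of these 3 bins, 0.22, 0.0078 and 0.20, did not pass the test (adjusted p = 0.37, 0.981 and 0.44). Apart from the gst2 bin, all of the 6 had a ChIP channel below its array median on both rif1Δ arrays, beside input lower still. In bin 2255000 to 2255999 the rif1Δ ChIP channel was at -1.91 and -1.33 and the input at -2.46 and -2.07. At gst2 the rif1Δ ChIP channel was at 0.31 and 0.20 and the input at -0.27 and -0.29.

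Like the bgs4 bin at 105 kb, the other 3 had higher values on both rif1Δ rad3Δ arrays than on both rif1Δ arrays. The bin at pal1 and are2, the second an acyltransferase gene of sterol metabolism, stood at 0.51 and 0.54 in rif1Δ and 1.22 and 0.89 in rif1Δ rad3Δ, without passing the test between strains (0.53 ± 0.17 SE, adjusted p = 0.0633). It passed with normexp background correction (0.60, adjusted p = 0.041), loess on intensity (0.67, adjusted p = 0.0197) and the A+T trend removed (0.56, adjusted p = 0.0448). With each array divided by its own spread it fell to 0.033 (adjusted p = 0.924). It also did not pass when centred on the mode (0.51, adjusted p = 0.107) or on chromosome III outside the region (0.49, adjusted p = 0.0758). The bin at the 5S rRNA gene SPRRNA.07 stood at 0.64 and 0.37 against 1.57 and 1.44 (1.003 ± 0.17, adjusted p = 0.00951). That difference did not pass with normexp (0.48, adjusted p = 0.17), after removal of the A+T trend (0.44, adjusted p = 0.0714) or without dim probes (0.60, adjusted p = 0.107). The bin in SPCC569.06, a gene of an uncharacterised protein 270 kb into the region, stood at 0.58 and 0.48 against 1.62 and 1.69 (1.13 ± 0.16, adjusted p = 0.00614). In these last 2 bins the arrays of each strain lay close together and far from those of the other strain.

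In rif1Δ rad3Δ the bins above the median joined into long runs, with gaps of 1 bin bridged. The longest run held 97 bins from 2325000 to 2428999 and peaked in SPCC569.06 at 3.15-fold. The next highest peak, 2.84-fold, was in the run of 23 bins around SPRRNA.07, from 2294000 to 2319999. Both peak ratios stood beside low input. In the SPCC569.06 bin the rif1Δ rad3Δ ChIP channel was at 0.52 and -0.28 and the input at -1.09 and -1.95. In the SPRRNA.07 bin the ChIP channel was at -0.086 and -0.48 and the input at -1.65 and -1.90. A lone bin between epl1, of the NuA4 histone acetyltransferase, and cnb1, of calcineurin, was high at 41 kb into the region, with 1.47 and 1.25 against 0.45 and 0.47 in rif1Δ. Runs of 16, 8 and 9 bins peaked at opt3, an oligopeptide transporter gene (1.43 and 1.17), at SPCC1840.13 (1.39 and 1.02) and at SPCC1919.07 with mrpl33, which has a mitochondrial ribosomal protein (1.29 and 1.05). In rif1Δ those 3 bins lay between -0.15 and 0.26. The bin at SPCC1919.07 and mrpl33 has 2 probes, 1 of them dim. Its input was higher in rif1Δ rad3Δ by 0.53 and 0.54, beside ChIP differences of 1.69 and 1.76.

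For the strain difference, the bin with the largest value was taken from each run of neighbouring bins whose arrays did not overlap, and the 6 runs with the highest such values are described. The bin in wtf25, of a family of meiotic drive genes, had 1.32 and 1.01 in rif1Δ rad3Δ and -0.97 and -0.41 in rif1Δ (difference 1.86 ± 0.22 SE, adjusted p = 0.00514), and with normexp the difference was 1.18. It has 2 probes, 1 of them dim, and on the replicate 1 arrays its input differed by -1.36 beside a ChIP difference of 0.93. The bin between nnk1, a kinase gene, and sac32, a nuclear export factor gene, had 1.76 and 1.21 against 0.036 and -0.19 (1.56 ± 0.21, adjusted p = 0.00564). Here the ChIP channel differed by 1.98 and 1.82 and the input by 0.25 and 0.40.

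The bin between dbp9, an RNA helicase gene, and trm732, a tRNA methylation gene, had 1.82 and 1.13 against 0.19 and -0.33 (1.55 ± 0.26, adjusted p = 0.00924). The bin between the spermidine transporter gene SPCC569.05C and SPCC569.03 had 1.42 and 1.24 against -0.50 and 0.15 (1.51 ± 0.22, adjusted p = 0.00684). The bin between SPCC1840.13 and sal3, a nuclear import receptor gene, had 1.44 and 0.86 against -0.0076 and -0.14 (1.22 ± 0.21, adjusted p = 0.00979). The last of the 6 runs peaked in the opt3 bin (1.18 ± 0.17, adjusted p = 0.0062). In all 6 the ChIP channel was higher in rif1Δ rad3Δ in both replicates, by 0.74 to 1.98.

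The 4 bins with both rif1Δ rad3Δ arrays below both rif1Δ arrays formed 2 runs, at 13 and 26 kb into the region, and the lowest bin of neither run passed the test. The bin in snf22 had -0.42 and -0.43 in rif1Δ rad3Δ against -0.19 and 0.14 in rif1Δ (-0.40 ± 0.17 SE, adjusted p = 0.131). The bin at tfg1, a TFIIF subunit gene, and cwf26 had -0.22 and -0.50 against -0.12 and -0.22 (-0.19 ± 0.17, adjusted p = 0.451).

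**Figure D4:**
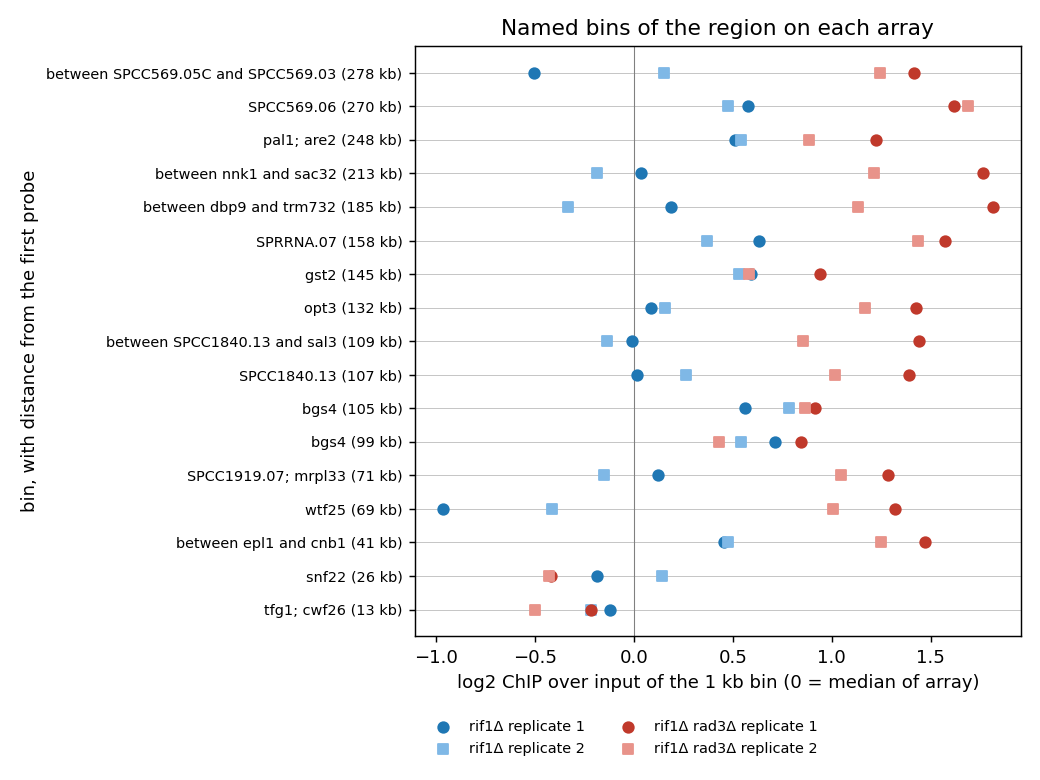
Log2 ChIP over input (x axis, 0 is the array median) of the 1 kb bins named for their level or strain difference on each of the 4 arrays, without those named for the local contrast, in order along the region with distance from its first probe (y axis). Both rif1Δ rad3Δ arrays lie above 0.8 in the plotted bins outward of 40 kb other than gst2 and the bgs4 bin at 99 kb.

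The shape inside the region was examined apart from its shared height. For this the median of bins within 25 kb on either side was subtracted from each bin before the fit. By this local contrast 17 region bins were higher in rif1Δ rad3Δ, or 6.23%, against 9.54% of all bins, and 3 were lower, or 1.1%, against 7.1% of all bins. The region thus had no larger share of local changes than the genome, and the raised level was mostly shared by neighbouring bins. By window outward 4, 6, 3, 2, 4 and 1 bins were called in either direction.

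The local rises included the bins between nnk1 and sac32 (0.82 ± 0.16 SE, adjusted p = 0.0107), between dbp9 and trm732 (0.79 ± 0.19, adjusted p = 0.0203) and beside sal3 (0.71 ± 0.16, adjusted p = 0.0163). Beside sal3 the local rise did not pass with normexp (0.35, adjusted p = 0.188) or after removal of the A+T trend (0.40, adjusted p = 0.0979). The rise between SPCC569.05C and SPCC569.03 (0.72 ± 0.20, adjusted p = 0.0354) did not pass with either, at 0.47 and 0.41, or without dim probes, at 0.43. The wtf25 bin had the highest (1.37 ± 0.21, adjusted p = 0.00404, and 0.77 with normexp), with the input difference given above. A bin over SPCC1620.13 and snf22 differed by 1.04 ± 0.24 (adjusted p = 0.0179), with local values of 0.50 and 0.94 against -0.68 and 0.033. The 3 local falls were within genes. They were at SPCC70.04C (-0.69 ± 0.18, adjusted p = 0.0298), at ski3, of the Ski complex of RNA decay (-0.60 ± 0.17, adjusted p = 0.0358), and in snf22 (-0.58 ± 0.17, adjusted p = 0.044). After removal of the A+T trend the falls at ski3 (-0.50, adjusted p = 0.0528) and in snf22 (-0.42, adjusted p = 0.0826) did not pass. When any 1 array was left out the local count was between 1 and 7 rises, with 1 without rif1Δ rad3Δ replicate 2, and 0 or 1 falls.

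Spaces between genes stood higher than genes in rif1Δ rad3Δ. Of the region's probes, 765 within genes averaged 0.79 and 0.38 in rif1Δ rad3Δ and 0.056 and 0.030 in rif1Δ. The 114 probes between divergent genes, where 2 promoters face apart, averaged 1.11 and 0.61 against 0.075 and -0.14. The 116 probes between genes in tandem averaged 1.03 and 0.56 against 0.043 and 0.029. The 14 probes between convergent genes averaged 1.17 and 0.82 against -0.13 and 0.13. Their ratio in rif1Δ rad3Δ stood beside low input, at -0.79 and -1.17, against -0.016 and -0.21 within genes. Their ChIP channel, at 0.37 and -0.37, was below that within genes, at 0.77 and 0.14. In each class both rif1Δ rad3Δ arrays were above both rif1Δ arrays.

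On the rest of chromosome III the strain difference was -0.042 ± 0.0071 (SE) within genes, 0.38 ± 0.083 between divergent genes, 0.20 ± 0.0075 between tandem genes and 0.034 ± 0.071 between convergent genes. In the region the corresponding differences were 0.54 ± 0.21, 0.89 ± 0.28, 0.76 ± 0.24 and 0.99 ± 0.22.

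Base composition followed the same pattern. With bins grouped by genome quartiles of A+T content, the region's strain difference was 0.52, 0.52, 0.60 and 0.76 from the lowest to the highest quartile. On the rest of chromosome III it was -0.12, -0.016, 0.069 and 0.19. The difference was positive at all 4 levels of A+T in the region. Its median A+T content was 63.3% against 63.1% over the genome. Across the 273 bins the rif1Δ rad3Δ signal correlated with position at r = 0.71 in replicate 1 and 0.47 in replicate 2, and with A+T at 0.24 and 0.19. The rif1Δ signal also rose outward, with r = 0.23 and 0.26 for position, against 0.047 and 0.022 on the rest of chromosome III. These describe neighbouring bins of the same arrays, which are not independent.

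Among genes, 42 of 104 with at least 2 probes were higher in rif1Δ rad3Δ, or 40.4%, against 11% of the 4183 genes tested, and 0 were lower, against 11.5%. The median gene of the region differed by 0.56, and that of all genes by -0.028. These counts too come from the contrast that chose the region. From the first to the last window the calls were 1 of 17 genes, 8 of 21, 4 of 16, 8 of 17, 12 of 21 and 9 of 12.

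The largest differences were at opt3 (1.17 ± 0.14 SE, adjusted p = 0.0122, limma over genes), sac32 (1.15 ± 0.16, adjusted p = 0.0135) and the splicing factor gene cwf18 (1.09 ± 0.18, adjusted p = 0.0147). On the arrays opt3 stood at -0.026 and 0.075 in rif1Δ and 1.36 and 1.03 in rif1Δ rad3Δ. The gene sac32 stood at -0.041 and -0.038 against 1.33 and 0.89. The gene cwf18 was below the median on both rif1Δ arrays, at -0.25 and -0.25, and at 1.10 and 0.59 in rif1Δ rad3Δ. They were followed by wtf25 (1.09), the kinase gene ppk38 (1.08) and SPCC569.06 (1.06). Without dim probes the wtf25 gene differed by 0.66.

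The smallest differences were all within the first 60 kb. The spliceosome gene cwf26 differed by -0.11 ± 0.13 (adjusted p = 0.564), the nuclear pore gene nup97 by -0.017 ± 0.12 and the overlapping SPCC1620.12C by -0.000095 ± 0.11. The kinase gene ckk2 differed by 0.043, yop1, of the endoplasmic reticulum, by 0.056, and pop5, of RNase P, by 0.071. Further out the gene with the lowest difference was bgs4, at 0.11 ± 0.17, with 0.25 and 0.59 in rif1Δ and 0.69 and 0.35 in rif1Δ rad3Δ.

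**Figure D5:**
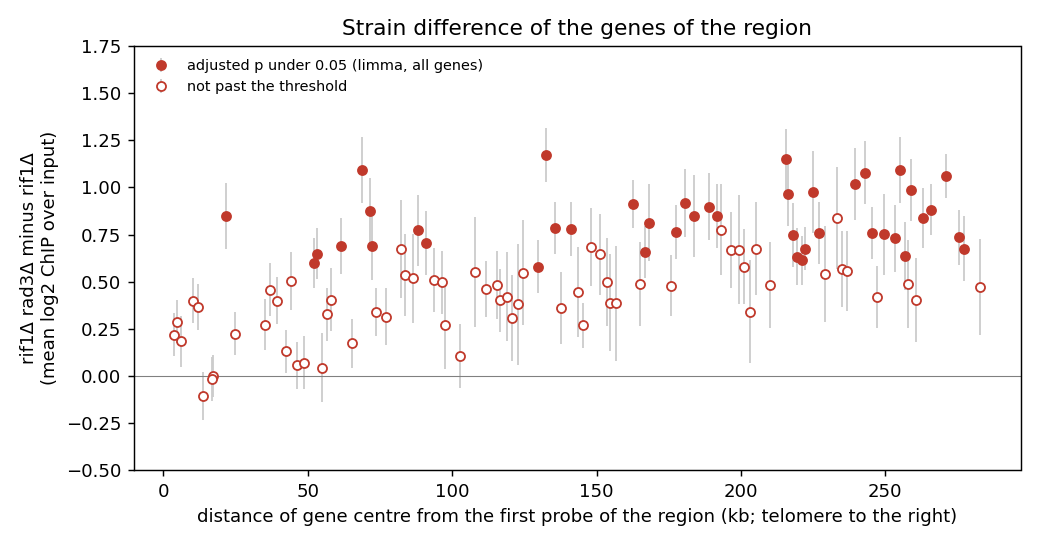
Difference between rif1Δ rad3Δ and rif1Δ (y axis, mean log2 ChIP over input of a gene's probes, bars are SE) for the 104 genes of the region against the distance of the gene centre from its first probe (x axis, kb). Filled points are the 42 genes past the test over all genes, and 1 of the 17 genes of the first 50 kb is among them.

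Genes were also grouped by words in their RefSeq product. Of 5 transporter genes 3 were called higher, opt3, SPCC965.13 (0.91) and SPCC569.05C (0.74), beside 24 of 186 over all genes. Of 5 meiosis or spore genes 3 were called, wtf25, mug170 (0.76) and mug9 (0.63), beside 14 of 94. The words for DNA repair, recombination or replication, among them helicase, matched thp1, a uracil glycosylase gene (0.78), and the RNA helicase gene dbp9 (0.85), which were called, beside 15 of 114. Of 4 oxidoreductase genes 2 were called, tyr1 (0.76) and SPCC1494.01 (0.66), beside 12 of 145. Of 2 ribosomal protein genes mrpl33 was called (0.69), beside 7 of 168, and of 2 cell wall or surface genes, pbn1 (0.33) and bgs4, 0 were called, beside 2 of 47. With so few members, these counts are read as no more than the level of the region.

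Long terminal repeats of the region had a median strain difference of 0.82. By class of space, the region's probes between genes differed by 0.76 to 0.99 on average, and those within genes by 0.54. The median bin differed by 0.64. The annotation has 16 long terminal repeats, the remains of Tf retrotransposons, and 15 have a probe within 500 bp. Their flanks ranged from -0.19 to 0.21 in rif1Δ, with a median of 0.014, and from -0.39 to 1.42 in rif1Δ rad3Δ, with a median of 0.81. The difference was positive at 14 of 15. Its largest value, 1.39, was at the repeat at 2380886 to 2381185, with 0.10 and -0.039 in rif1Δ and 1.77 and 1.07 in rif1Δ rad3Δ. The exception was the repeat at 2180475 to 2180832, with 0.0097 and -0.22 against -0.020 and -0.76. Some of these repeats lie within 1 kb of each other and share probes.

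The full-length element Tf2-13 (2320320 to 2324320) has no probe inside it, and the single probe within 500 bp stood at 0.067 and 0.11 in rif1Δ and 1.11 and 0.92 in rif1Δ rad3Δ. The wtf24 pseudogene likewise rests on 1 flanking probe, at -0.18 and -0.16 against 0.057 and -0.65. The 6 probes around the 5S gene SPRRNA.07 (2308122 to 2308319) stood at 0.59 and 0.37 against 1.53 and 1.29. The region's annotation holds 0 tRNA genes, 0 snRNA or snoRNA genes and 0 hexose transporter genes of the ght family, so that the signal has no such members there.

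The 250 bases upstream of gene starts were searched for the same base runs. Runs of AAAAAA or TTTTTT on either strand were in 71 of 110 upstream sequences of the region, or 64.5%, and in 59.4% of the 5112 of the 3 chromosomes. Their median A+T content was 68.4% and 68%.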

How the data were processed

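Rad52 ChIP and input were hybridised together on 4 two-colour Agilent tiling arrays with probes of 60 nt, 2 per strain. Per the file headers and the submitters' processing notes, they were read with Agilent Feature Extraction 10.7.3.1. Of the deposited intensity columns, the processed signals were used. These had a background subtracted and a dye factor applied, per the file headers. The deposited log10 ratio was used to check the direction of the ratio. In the authors' value table the values were a linear ratio, Cy3 over Cy5 processed signal and uncentred, with column medians of 0.985, 1.01, 0.968 and 1.01. Molecules and protocols in the labels speak of RNA, and how the ChIP DNA was prepared is not given in the sources used here.

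The log2 of ChIP over input was taken per probe and each array was shifted so that its nuclear probes had a median of 0, without loess or quantile normalization. Outlier-flagged probes (93) were left out. Probes were assigned to 1 kb bins by their centre, with at least 2 probes per bin. Bins, local contrasts and genes were fitted on all 4 arrays by lmFit and eBayes of limma 3.58.1 in R 4.3.3, which leaves 2 residual degrees of freedom, with Benjamini-Hochberg adjustment at 0.05, and the code was tested on simulated data. Adjusted p-values are from limma throughout. An exact permutation test of 2 against 2 arrays cannot go below p = 0.333. The number of arrays limits the precision.

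The array design gives the coordinates, and its name refers to an NCBI build of Feb2002. Probe brightness followed the base composition of ASM294v3 at an offset of 0 in the region (r = -0.302 across probes), so its gene names and RefSeq sequences were used there. The part of chromosome I that did not match, 14.2% of nuclear probes, was left out of gene tests.

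The members, gene groups and named bins were chosen with earlier results of these data known. Named bins are the 6 highest runs in each strain, up to 6 rises and falls between strains whose arrays do not overlap, and the same for the local contrast. Named genes are the 6 with the largest and the 6 with the smallest difference. Alternatives covered background correction, centring, spread, intensity trend, A+T trend, dim probes, bins and replicates.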

Additional observations from a re-analysis of the deposited data

How the results depend on the processing

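The mean difference of the region was positive under all alternatives run, from 0.40 without rif1Δ rad3Δ replicate 1 to 0.83 without rif1Δ rad3Δ replicate 2, and 0.44 with arrays scaled to one spread. The region was chosen by this difference on the same arrays, so a kept sign is no test. In 2 kb bins and with the replicate block it stayed at 0.61, because these use the same probe means and cannot move it. Counts of called bins moved more, and the cause was not tested unless stated. The count of higher bins in rif1Δ rad3Δ, 121, was 0 with one spread and 49 to 173 with 1 array left out. The count of lower bins, 0, was 1 with the A+T trend removed. Over all 12047 bins the higher and lower counts were 1238 and 983, and with one spread 14 and 78.

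The count of bins above the median in rif1Δ rad3Δ, 196, became 120 with one spread, 113 in 2 kb bins, of which there are fewer, and 116 to 218 with 1 array left out. The count below, 2, became 1 with arrays centred on the mode, 0 with one spread, 5 after removal of the A+T trend and 0 to 4 with 1 array left out. The count above the median in rif1Δ, 6, became 3 with mode centring, 17 with one spread, 3 in 2 kb bins and 0 to 10 with 1 array left out. The count below, 1, became 3 with normexp, 0 with mode centring, 4 with one spread, 2 with loess, 2 after removal of the A+T trend, 0 in 2 kb bins, 0 with bins set by probe start, an alternative chosen after seeing the data, and 0 to 2 with 1 array left out. The count of local rises, 17, became 11 with normexp, 0 with one spread and 1 to 7 with 1 array left out. The count of local falls, 3, became 5 with normexp, 0 with one spread, 5 with loess, 7 with the A+T trend removed and 0 to 1 with 1 array left out.

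Of 26 named differences that passed the test, 0 changed sign under any alternative that gave them a value. Values were given for 23 without dim probes, 24 with bins set by probe start and 6 in 2 kb bins. Those 6 were gene values, which do not use bins. Removal of the A+T trend was not applied to genes, and the replicate block leaves every difference unchanged. In these cases a sign could not change. The 26 had been picked for their size on these same arrays, so a kept sign is no test. With one spread opt3, sac32 and cwf18 passed (0.88, 0.90 and 1.01) while 23 did not. The named differences that changed sign had not passed the test. The bgs4 bin at 99 kb (0.0078) became -0.0087 with mode centring, -0.027 centred on chromosome III outside the region, -0.44 with one spread, -0.073 after removal of the A+T trend and -0.20 to 0.21 with 1 array left out. The bgs4 bin at 105 kb became -0.30 and the gst2 bin -0.24 with one spread, and the gst2 bin -0.049 after removal of that trend. The gene cwf26 became 0.019 with one spread and -0.22 to 0.010 with 1 array left out. The gene nup97 became 0.0061 with loess, 0.0012 without dim probes and -0.072 to 0.039 with 1 array left out. SPCC1620.12C became 0.034 with loess, 0.013 without dim probes and -0.048 to 0.047 with 1 array left out. With 1 array left out ckk2 ranged from -0.23 to 0.31, yop1 from -0.045 to 0.16 and pop5 from -0.092 to 0.23.

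Nothing in the labels says that replicate numbers pair the arrays, though both arrays of replicate 1 shared a slide. Same-numbered arrays deviated together across bins with r = 0.33. With the replicate block, 198 region bins were higher and 1 lower, 29 and 10 were above and below the median in rif1Δ, and 36 and 21 were local rises and falls. The block also changed calls of named bins, since the difference in snf22 (-0.40) then passed (adjusted p = 0.0426), as did that at pal1 and are2 (0.53, adjusted p = 0.00889). The correlation for the slide as a random block could not be estimated from 4 arrays, so that alternative was not run.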
